A study of Rattus norvegicus with 5 samples.

Results

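Interferon-stimulated genes were followed in 5 cornea samples from male Sprague-Dawley rats aged 6 months, 3 wild-type and 2 transgenic. The transgenic P1 hMR rats carry the human gene NR3C2, which codes for the mineralocorticoid receptor (MR), a steroid receptor for aldosterone and glucocorticoids, and express it in excess; the labels do not name the promoter that drives it. Genotype is the one difference between the groups that the labels name, each sample is 1 library of total RNA from dissected cornea (called a cornea here), and whether a sample pools eyes or animals is not stated. The set holds 34 gene symbols that interferon is known to induce. The gene table of 20339 genes lists 32 of them, and Isg15 and Oas1b, in neither the gene nor the isoform table under those symbols, were not analysed here. All 32 passed the filter on low counts.

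Interferons are secreted proteins that cells release on sensing viral RNA or DNA. Type I interferon binds a receptor coupled to Janus kinases, which activate a complex containing Stat2 and Irf9; this complex binds a DNA motif, the interferon-stimulated response element, in the promoters of its target genes. Type II interferon acts through another receptor and a separate motif, the gamma-activated site. The products of the target genes block viral entry, degrade viral RNA, stop its translation, or feed back on the pathway, and many of them are also made at a low tonic level in uninfected tissue. At the ocular surface the corneal epithelium is itself a source of such defences.

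Promoter sequences show how the response element sits in these genes. RefSeq windows of 300 bases on the rat assembly GRCr8, from 250 bases before a gene's start to 50 from it, matched 24 of the 32 genes by symbol; the counts themselves were made on rn6. The core letters GAAANNGAA, searched on both strands, occurred in 15 of the 24 windows (62.5%), against 7.05% of the 11251 windows of tested genes and 9.71% of all 33469 windows. The letters TTCNNNGAA of the gamma-activated site, a palindrome that can overlap the first motif, occurred in 7 of 24 (29.2%), against 6.63% of tested genes and 8.87% of all windows. The letters TGTTCT, the core of steroid receptor elements, were in 5 of 24 (20.8%), against 12.6% of tested genes and 20.7% of all windows. A match describes letters in a window and is no measure of binding.

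Of the 22 matches to GAAANNGAA, 16 began within the 100 bases before the start, and positions ran from -169 to 27 with a median of -57. Stretches of 100 bases from 6 promoters are printed 5′ to 3′ on the strand of the gene. Ifitm3, Ifit3 and Irf7 were chosen as genes that were lower in both transgenic corneas, Ifitm2 as a sister gene that was not, Gbp2 for its abundance and Irf1 for its gamma-activated site. Capitals mark the response element core in the first 5 and the gamma-activated site in Irf1.
Ifitm3: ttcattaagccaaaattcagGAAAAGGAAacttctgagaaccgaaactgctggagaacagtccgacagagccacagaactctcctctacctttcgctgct
Ifitm2: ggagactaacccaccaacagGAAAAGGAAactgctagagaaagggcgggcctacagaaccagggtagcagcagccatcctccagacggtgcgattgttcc
Ifit3: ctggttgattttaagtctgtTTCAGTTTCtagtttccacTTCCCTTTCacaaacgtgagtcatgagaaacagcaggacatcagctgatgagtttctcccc
Irf7: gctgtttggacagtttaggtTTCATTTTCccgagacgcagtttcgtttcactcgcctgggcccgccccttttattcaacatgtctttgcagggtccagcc
Gbp2: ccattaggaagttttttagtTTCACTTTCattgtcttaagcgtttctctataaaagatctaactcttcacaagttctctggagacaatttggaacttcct
Irf1: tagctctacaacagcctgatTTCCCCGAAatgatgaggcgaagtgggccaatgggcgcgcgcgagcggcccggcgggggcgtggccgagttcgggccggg
On GRCr8 they lie at chr1:205541723-205541822 (Ifitm3, minus strand), chr1:205482302-205482401 (Ifitm2, minus), chr1:241527263-241527362 (Ifit3, plus), chr1:205800012-205800111 (Irf7, minus), chr2:234005677-234005776 (Gbp2, plus) and chr10:38417773-38417872 (Irf1, plus).

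Ifitm2 and Ifitm3 carry the same match, GAAAAGGAA, at -33 and -44 from the start. Around it the printed stretches, aligned on the match without gaps, shared 37 of 100 letters. Ifit3 has a pair of matches on the opposite strand, GAAACTGAA at -43 and GAAAGGGAA at -24. Oas1a and Bst2 each have 2 matches that overlap, at -41 and -35 and at -131 and -125.

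**Figure D1:**
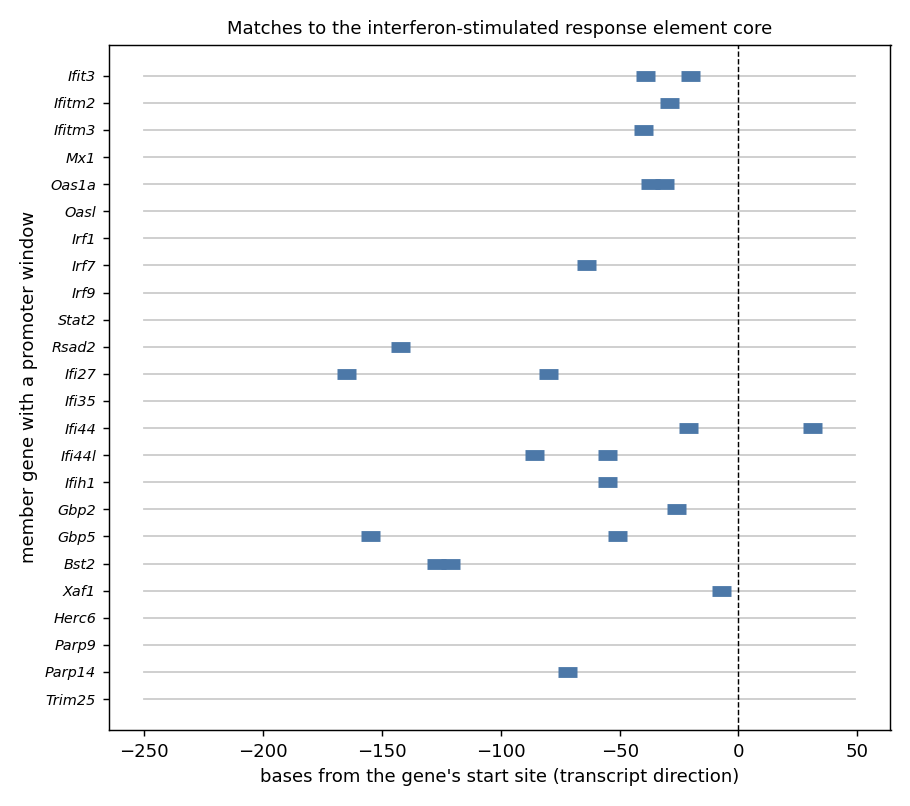
Position of each match to the response element core (blue) in the promoter windows of 24 interferon-stimulated genes, one line per gene; the x axis counts bases from the gene's start. 15 genes have a match, and 16 of the 22 matches begin within the 100 bases before the start.

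Human NR3C2 was counted at 0 in each wild-type library and at 1094 and 1146 in transgenic libraries 1 and 2, as the labels state. Library totals ran from 20874010 to 30449675 counts. Krt12, the keratin that defines corneal epithelium, had 32247 to 45506 CPM over the 5 libraries; CPM is a count scaled to a common library size, after TMM correction for composition. Any 2 libraries differed by more than sampling noise, with a chi-square per degree of freedom of at least 14.05 across genes. That lowest value, and the highest correlation (0.9905), belonged to wild-type 3 and transgenic 1, so the closest pair crossed genotype. For the 2 transgenic libraries the chi-square value was 36.43. Since the labels do not name the animals, p-values measure the spread between these libraries.

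Most interferon-stimulated genes were lower in the transgenic corneas, by small amounts, and none was called by edgeR after adjustment (DESeq2 called 3). Of the 32 genes 26 had a log2 fold change (transgenic against wild-type) below 0, or 81.2%, where 51.8% of all 13304 genes tested did; the median was -0.24 for the 32 and -0.01 over all genes. Summed over the 32 genes, expression was 2128, 1966 and 1753 CPM in wild-type samples 1 to 3 against 1697 and 1500 CPM in the transgenic pair. The sums did not overlap, but wild-type cornea 3 lay close to transgenic cornea 1. Between these 2 corneas Ifit2 alone differed by more than the sums did (152.3 and 95.2 CPM). Without Ifit2 the sums of the genotypes would overlap. In whole cornea, fewer cells of a type and less RNA per cell cannot be told apart.

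By the quasi-likelihood test of edgeR with Benjamini-Hochberg adjustment over all genes, 0 of the 32 were called, with adjusted p-values from 0.404 to 0.989; 0.00752% of all genes were called, which is NR3C2 alone. At an unadjusted p under 0.05, 6 of the 32 (18.8%) were lower and 0 higher, against 1.93% lower and 4.39% higher over all genes. Both transgenic values lay below all 3 wild-type values in 7 of the 32 (21.9%) and above them in 0, against 10.7% and 12.0% over all genes. DESeq2 called 3 of the 32 (9.38%), Ifitm3, Ifit2 and Ifit3, all lower, against 0.391% of all genes, and limma voom called 0. The DESeq2 adjusted p was 0.00456 for Ifitm3, 0.0139 for Ifit2 and 0.0384 for Ifit3. These calls changed with the libraries used. DESeq2 called Ifit2 and Ifitm3 without wild-type cornea 1, all 3 without wild-type cornea 2, all 3 with Herc6 and Ifitm1 without wild-type cornea 3, Ifit2 and Ifit3 without transgenic cornea 1, and Ifitm1 without transgenic cornea 2.

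**Figure D2:**
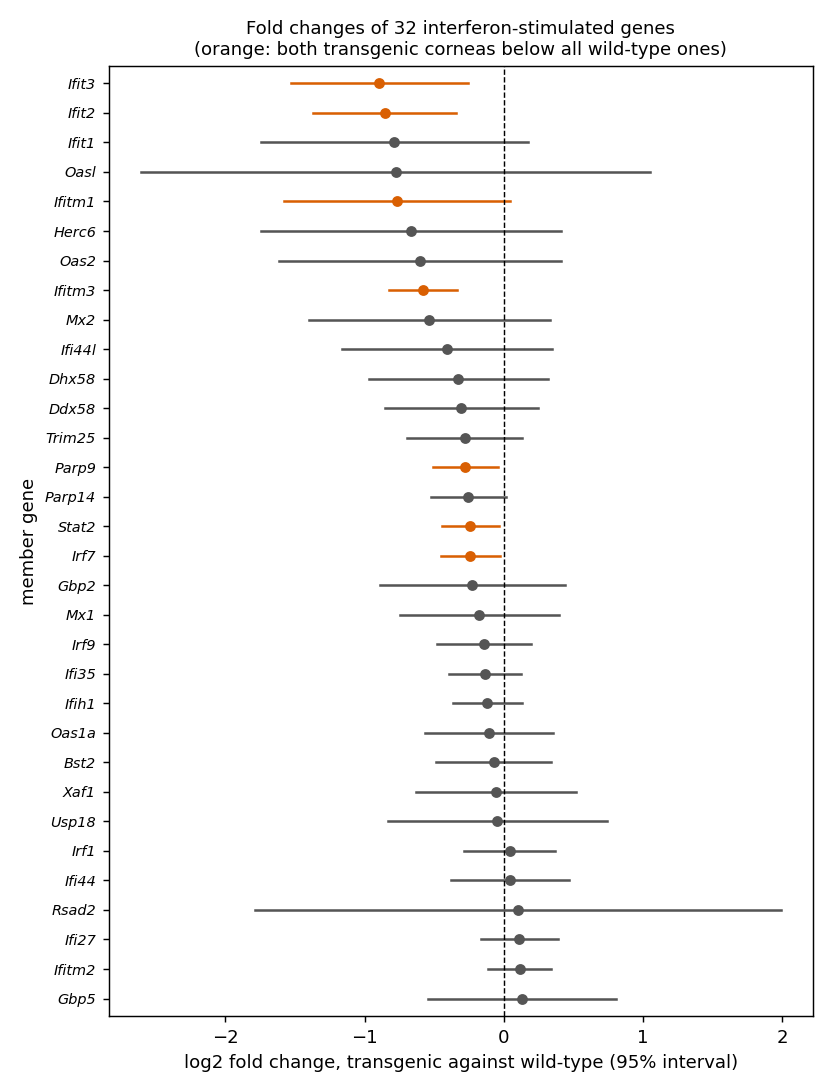
Log2 fold change of each of the 32 genes, transgenic against wild-type, with its 95% interval from the edgeR fit (3 and 2 libraries). Points run from -0.89 (Ifit3) to 0.13 (Gbp5); the 7 genes in orange had both transgenic values below all wild-type values, and no gene passed in edgeR after adjustment.

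Markers of cell types of the cornea and of other tissues differed between the genotypes beside these genes, and none of them was called by edgeR. At an unadjusted edgeR p under 0.05, 3 of 5 pigment-cell, 4 of 7 keratocyte, 4 of 6 endothelium and 1 of 5 blood vessel markers were higher. Over all genes 4.39% were. Of the lens markers 2 of 5 were lower at that threshold, against 1.93% of all genes. DESeq2 called 1 keratocyte and 1 lens marker, against 0.391% of all genes. Pigment-cell markers summed to 6.26 to 42.5 CPM without the transgene and 74.5 to 142.9 CPM with it, and 5 of 5 tested were higher. Lens markers summed to 17.3 to 117.9 and 4.71 to 11.9 CPM, with 5 of 5 lower, and wild-type cornea 1 held the 117.9. Keratocyte markers summed to 2125 to 2355 and 2562 to 2701 CPM, with 6 of 7 higher. Corneal endothelium markers summed to 1024 to 1116 and 1230 to 1291 CPM, with 5 of 6 higher, and blood vessel markers to 44.4 to 52.1 and 57.3 to 67.6 CPM, with 5 of 5 higher. The part of these shifts in the interferon-stimulated genes was not tested.

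Leukocyte markers, whose cells respond strongly to interferon, overlapped between genotypes. Their sum was 97.4 to 111.9 CPM without the transgene and 87.6 to 112.2 CPM with it. Of 18 tested 7 were lower and 11 higher, 0 were called by edgeR, and 0 were called by DESeq2 or had an unadjusted p under 0.05. Ptprc, the pan-leukocyte phosphatase, had 2.06, 1.66 and 2.32 CPM in wild-type samples 1 to 3 compared with 1.54 and 2.64 CPM in transgenic samples 1 and 2. The B cell marker Ms4a1 and the cytotoxic granule gene Gzmb were at 0 in all libraries. Corneal epithelium markers overlapped too, at 106981 to 121058 CPM without the transgene and 99296 to 124939 CPM with it.

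**Figure D3:**
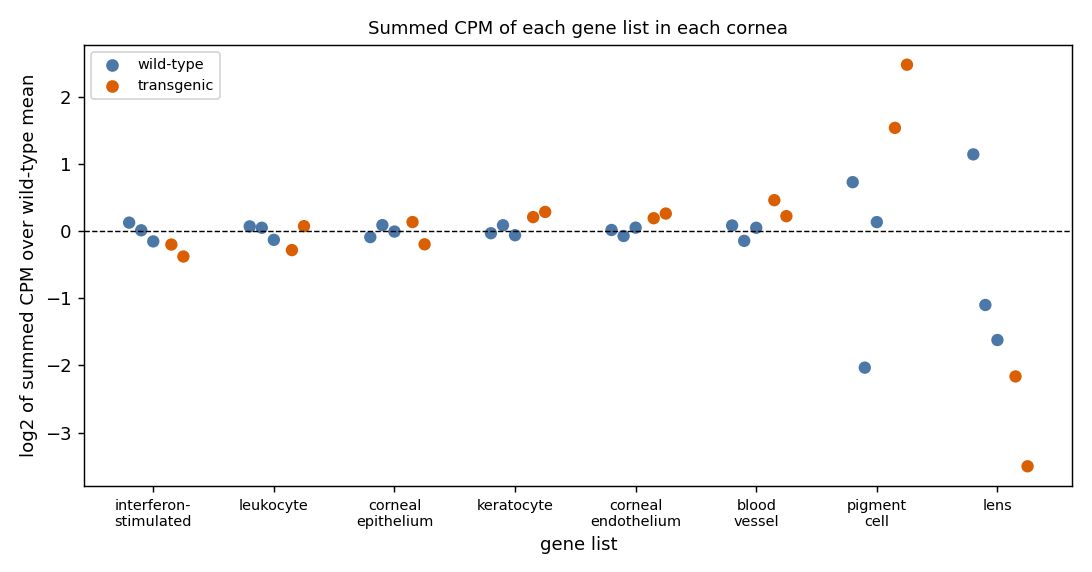
Summed CPM of each gene list in each library, as log2 over the wild-type mean (blue, 3 wild-type; orange, 2 transgenic). The interferon-stimulated sum is lower in both transgenic corneas (1697 and 1500 CPM, at least 1753 in wild-type), leukocyte sums overlap, and pigment and lens sums differ most. Without Ifit2 the interferon-stimulated sums would overlap.

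Interferon transcripts themselves were at or near 0. Ifnb1 and Ifng, the genes for interferon beta and gamma, were counted at 0 in all 5 libraries, which allows a level of up to 0.147 CPM (3 counts in the smallest library, counting error only). Ifne, an epithelial interferon, had 4 counts in wild-type cornea 1 and Ifnk, an interferon of keratinocytes, 2 counts in transgenic cornea 2, and both were at 0 elsewhere. The other 7 interferon symbols listed were not analysed here.

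Among the transcription factors, Irf7 and Stat2 were lower in both transgenic corneas and Irf1 was not. Stat2, which joins Irf9 in the complex that type I interferon activates, had 71.3, 70.7 and 73.5 CPM in wild-type samples 1 to 3 against 63.2 and 58.4 CPM in the transgenic pair (log2 fold change -0.24 ± 0.09 SE, edgeR adjusted p = 0.731). Its wild-type values were close together, the groups did not overlap, and the difference did not pass. Irf7, the factor that amplifies type I interferon production, had 92.3, 101.3 and 99.4 CPM without the transgene and 78.5 and 86.8 CPM with it (-0.24 ± 0.10, edgeR adjusted p = 0.741), again without overlap.

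Irf9, the DNA-binding partner of Stat2, had overlapping values, with a mean of 16.0 ± 1.78 CPM (SD, n = 3) without the transgene and 14.5 ± 1.57 CPM (n = 2) with it. Irf1, a factor induced mainly by interferon gamma, had 210.8, 224.9 and 177.4 CPM without the transgene and 239.1 and 181.5 CPM with it. One transgenic value was the highest of all 5 and the other the second lowest, and the log2 fold change was 0.04 with a 95% interval of -0.29 to 0.37. Its sign changes to -0.05 without wild-type cornea 3 and to -0.17 without transgenic cornea 1.

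The IFIT genes had the lowest log2 fold changes of the 32, that of Ifit1 on few reads. Their proteins bind foreign RNA through its 5′ end and block its translation. Ifit2 had 209.9, 128.1 and 152.3 CPM in wild-type samples 1 to 3 compared with 95.2 and 85.6 CPM in transgenic samples 1 and 2 (log2 fold change -0.86 ± 0.21 SE, 95% interval -1.37 to -0.34, edgeR adjusted p = 0.527). Ifit3 had 90.8, 55.2 and 59.2 CPM without the transgene and 41.4 and 32.4 CPM with it (-0.89 ± 0.25, interval -1.53 to -0.26, edgeR adjusted p = 0.658). In both genes wild-type cornea 1 was highest, and both transgenic corneas lay below every wild-type cornea. Wild-type cornea 1 was also the sample with the most lens transcripts (117.9 CPM, at most 24.9 in any other), and the part of this in the IFIT values was not tested. Without it both log2 fold changes were -0.63.

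Ifit2 and Ifit3 kept a similar ratio in every library. Their count ratio, which does not depend on scaling and is not corrected for length, was 2.31 to 2.57 in wild-type and 2.30 and 2.64 in transgenic corneas. Ifit1 had few reads, with 83, 45.27 and 27 counts in wild-type and 36 and 35 in transgenic corneas. On the CPM scale these were 3.00, 2.20 and 1.23 in wild-type and 1.39 and 1.11 in transgenic corneas, so the groups overlapped (log2 fold change -0.79 ± 0.43). Reads of Ifit1 can be shared with its near copy Ifit1bl, as its fractional count shows, which makes its own value uncertain; without wild-type cornea 1 the log2 fold change was -0.45.

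**Figure D4:**
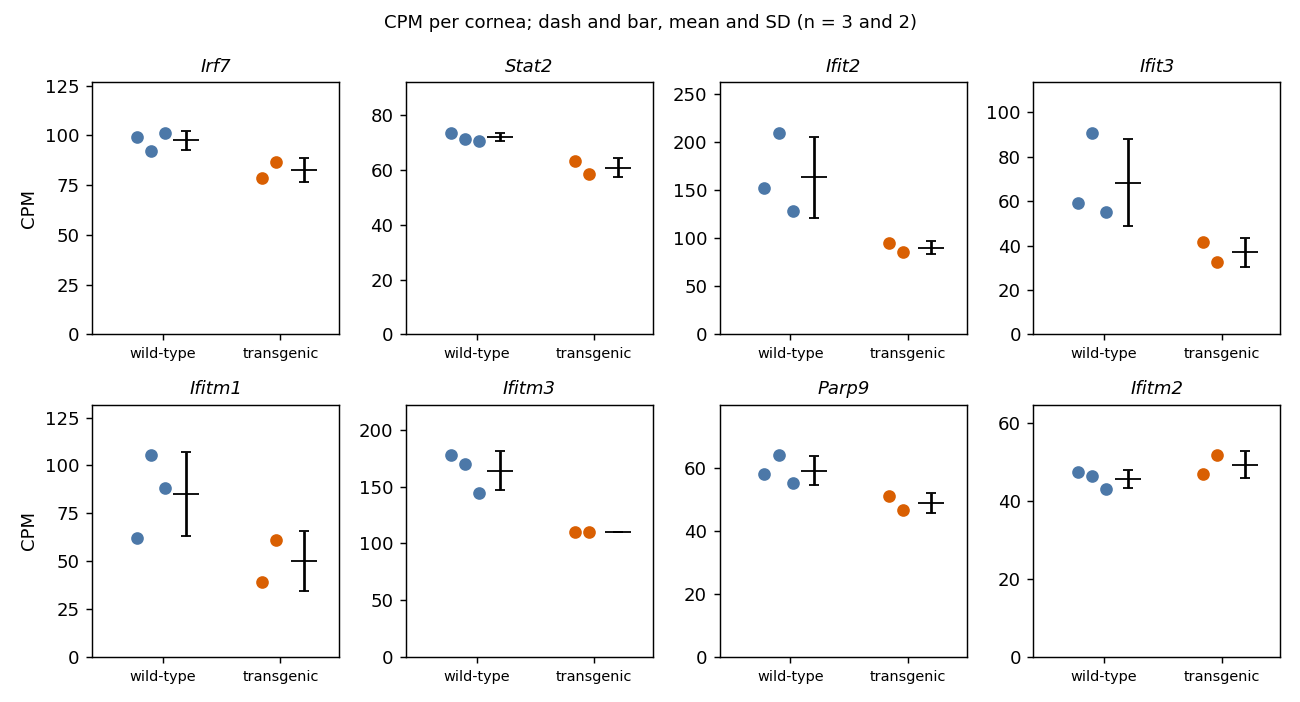
CPM of 8 genes in each library (blue, 3 wild-type; orange, 2 transgenic); dashes and bars give the mean and SD. In 7 genes both transgenic values lie below all wild-type values, for example 110.2 and 109.8 CPM against at least 144.8 CPM in Ifitm3, while Ifitm2 overlaps.

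The IFITM genes, whose membrane proteins stop virus particles from fusing with the cell, differed among themselves. Ifitm3 had 169.8, 144.8 and 177.9 CPM in wild-type samples 1 to 3 against 110.2 and 109.8 CPM in the transgenic pair. The transgenic values were nearly equal and lay below the lowest wild-type value. The log2 fold change was -0.58 ± 0.11 (SE, 95% interval -0.82 to -0.33), the smallest p of the 32 genes and rank 12 of 13304, with an edgeR adjusted p of 0.404. It stayed between -0.65 and -0.51 with any 1 library left out.

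Ifitm1 had 105.4, 88.1 and 61.97 CPM without the transgene and 38.98 and 61.03 CPM with it (log2 fold change -0.77 ± 0.31, edgeR adjusted p = 0.802). The log2 fold change was -0.48 without transgenic cornea 1 and -1.13 without transgenic cornea 2. The lowest wild-type and the highest transgenic value nearly met. Ifitm2 had 46.5, 43.1 and 47.5 CPM without the transgene and 47.0 and 51.9 CPM with it, with a log2 fold change of 0.11 and an interval of -0.11 to 0.34. The interval of Ifitm2 lay wholly above that of Ifitm3. The count ratio of Ifitm3 to Ifitm2, not corrected for length, was 3.65, 3.36 and 3.75 in wild-type and 2.35 and 2.12 in transgenic corneas, a comparison chosen after the values were seen and not tested. Among the genes with a promoter window, Ifitm2, Ifitm3, Irf7 and Ifit3 lie on chromosome 1.

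Antiviral GTPases overlapped between genotypes. Mx proteins are dynamin-like GTPases that trap viral ribonucleoproteins, and guanylate-binding proteins attack the vacuoles of intracellular microbes. Mx2 had 3.47, 4.70 and 5.92 CPM without the transgene and 1.97 and 4.46 CPM with it (log2 fold change -0.53 ± 0.38). The log2 fold change was -0.07 without transgenic cornea 1, -1.25 without transgenic cornea 2 and -0.33 without wild-type cornea 3. Reads are split between Mx1 and Mx2, whose deposited counts are fractional but sum to whole numbers in all 5 libraries: 280, 198 and 300 in wild-type and 171 and 353 in transgenic corneas. The summed level was 10.1, 9.69 and 13.7 CPM without the transgene and 6.59 and 11.2 CPM with it, with overlap.

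Gbp2 had 146.5, 230.6 and 153.1 CPM without the transgene and 178.5 and 123.6 CPM with it (log2 fold change -0.23 ± 0.26), with wild-type cornea 2 apart from the rest. Without wild-type cornea 2 or transgenic cornea 2 its log2 fold change was 0.02, and without transgenic cornea 1 it was -0.52. Gbp5, which restricts the maturation of viral envelopes, had the highest log2 fold change of the 32, 0.13 ± 0.30, and -0.26 without transgenic cornea 2.

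Of the oligoadenylate synthetases, which make the messenger that activates RNase L, the 3 analysed had log2 fold changes below 0 with overlapping values. Oas2 had 1.88, 0.930 and 2.46 CPM without the transgene and 1.27 and 1.05 CPM with it (log2 fold change -0.60 ± 0.45), and its log2 fold change was -0.29 without wild-type cornea 3. Oas1a stood at 33.5 ± 4.56 CPM without the transgene and 31.1 ± 9.10 CPM with it, and its log2 fold change of -0.11 became 0.16 without transgenic cornea 1. Its row equals the sum of the isoforms named Oas1a and Oas1g, to within 0.01 counts in every library, so near-identical copies are pooled in it.

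Oasl, a relative of the synthetases, varied widely within each genotype. It had 156.6, 160.5 and 71.4 CPM without the transgene and 109.0 and 42.4 CPM with it (log2 fold change -0.78, interval -2.61 to 1.05). The log2 fold change was -1.61 without transgenic cornea 1 and -0.25 without transgenic cornea 2. Rsad2, the radical SAM enzyme viperin, had 71.2, 53.5 and 27.1 CPM without the transgene and 79.0 and 29.9 CPM with it (0.10, interval -1.79 to 1.99). Its sign depended on the library, at -0.76 without transgenic cornea 1, -0.20 without wild-type cornea 3, 0.64 without transgenic cornea 2 and 0.44 without wild-type cornea 1. Herc6, the ligase that attaches Isg15 to other proteins in rodents, had 46.5, 43.0 and 20.9 CPM without the transgene and 26.5 and 20.02 CPM with it (-0.66 ± 0.40, interval -1.74 to 0.41). In these 3 genes wild-type cornea 3 and transgenic cornea 2 held the 2 lowest values.

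Within wild-type corneas the highest value was 2.25 times the lowest for Oasl, 2.63 times for Rsad2 and 2.23 times for Herc6. The median of that ratio was 1.41 over the 32 genes and 1.23 over all genes tested. Stat2 had the narrowest wild-type range, 1.04. Oas2, at 2.64, had the widest.

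**Figure D5:**
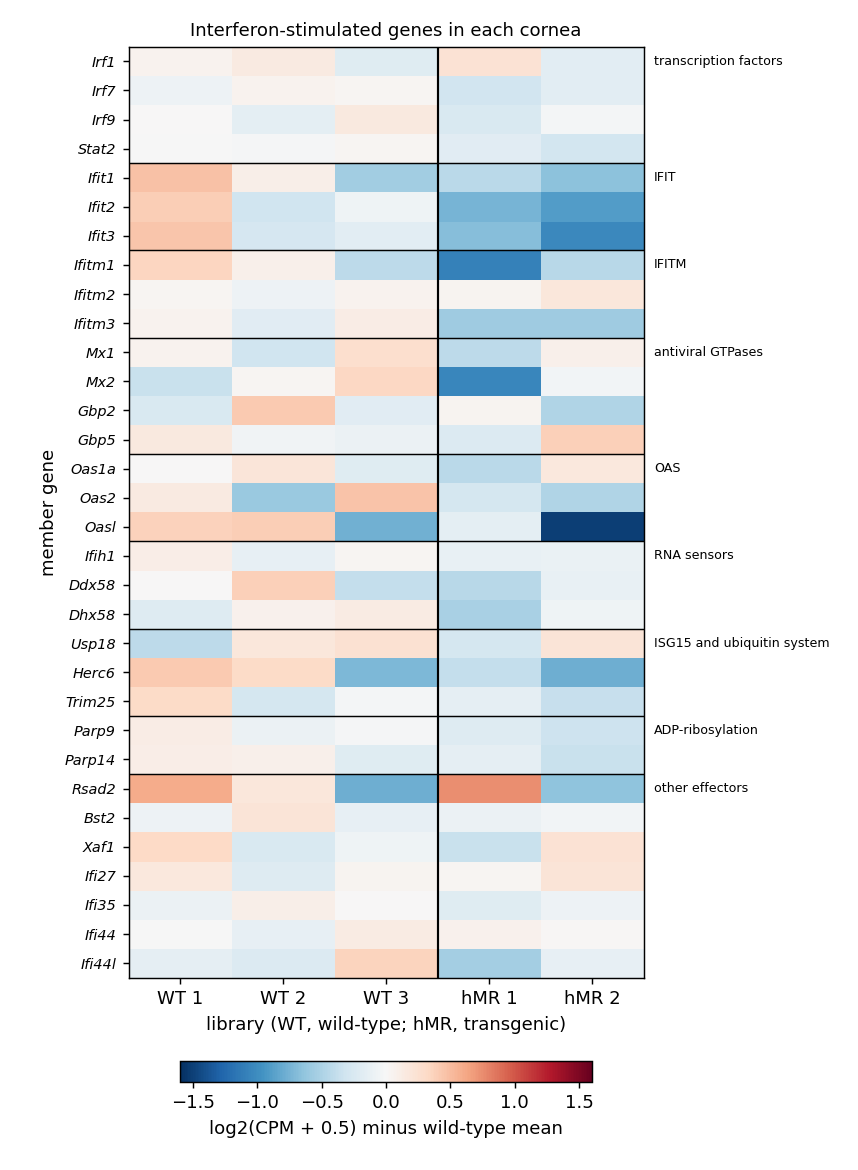
Each of the 32 genes (rows, by role) in each library (columns), as log2(CPM + 0.5) minus the wild-type mean; blue is lower and red higher. Both transgenic columns are mostly blue, with medians of -0.26 and -0.15, while Rsad2, Oasl and Herc6 also differ between wild-type corneas.

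RNA sensors had log2 fold changes slightly below 0. Ddx58, which encodes RIG-I and detects viral RNA ends, had 27.3, 35.6 and 20.9 CPM without the transgene and 19.9 and 25.2 CPM with it (log2 fold change -0.31 ± 0.23). Wild-type cornea 2 was the highest, and without it the log2 fold change was -0.09; it was -0.15 when transgenic cornea 1 was dropped, -0.47 when wild-type cornea 3 was, and -0.48 when transgenic cornea 2 was. Ifih1, which encodes MDA5, a sensor of long double-stranded RNA, stood at 36.6 ± 3.20 CPM without the transgene and 33.8 ± 0.223 CPM with it. Dhx58, a regulator of both sensors, stood at 3.50 ± 0.478 and 2.78 ± 0.710 CPM. Both overlapped between genotypes.

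In the Isg15 and ubiquitin system, Trim25, the ubiquitin ligase that activates RIG-I, had 101.5, 67.4 and 79.7 CPM without the transgene and 73.8 and 62.9 CPM with it (log2 fold change -0.28 ± 0.17). Wild-type cornea 1 stood above the rest, and without it the log2 fold change was -0.10, against -0.17 without transgenic cornea 2. Usp18, the protease that removes Isg15 and dampens receptor signalling, had 2.60 ± 0.724 CPM without the transgene and 2.499 ± 0.698 CPM with it.

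The ADP-ribosylation genes Parp9 and Parp14, whose proteins modulate interferon signalling, were both lower. Parp9 had 64.0, 55.1 and 58.1 CPM without the transgene and 51.0 and 46.6 CPM with it (log2 fold change -0.28 ± 0.10, edgeR adjusted p = 0.731), without overlap. Parp14 had 145.2, 142.4 and 117.7 CPM without the transgene and 121.9 and 104.7 CPM with it (-0.25 ± 0.12, edgeR adjusted p = 0.804), where transgenic cornea 1 lay above wild-type cornea 3; without transgenic cornea 2 the log2 fold change was -0.15. Neither passed.

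The other effectors overlapped between genotypes in the gene table. Ifi27, a mitochondrial protein gene used as a blood marker of viral infection, had 211.1, 163.1 and 193.7 CPM without the transgene and 192.2 and 217.1 CPM with it (log2 fold change 0.11, interval -0.16 to 0.39). Bst2, the tetherin that holds budding virions on the cell, stood at 7.51, 9.25 and 7.24 CPM without the transgene and 7.44 and 7.74 CPM with it. Log2 fold changes were -0.41 for Ifi44l, -0.14 for Ifi35, -0.06 for Xaf1 and 0.04 for Ifi44; the overlap holds for all 7 genes of this group, Rsad2 included. Ifi44l read -0.17 without wild-type cornea 3, -0.18 without transgenic cornea 1 and -0.68 without transgenic cornea 2, and its single named isoform differed more than its gene row.

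Over the 32 genes, the lowest of the 5 libraries was transgenic cornea 1 in 12 genes and transgenic cornea 2 in 11, against 5 for wild-type cornea 2, 3 for cornea 3 and 1 for cornea 1. These are 37.5% and 34.4% for the transgenic corneas, where they held the lowest value in 17.6% and 23.4% of all genes tested. The highest value was in a transgenic cornea in 5 genes: Irf1 and Rsad2 in cornea 1 and Ifitm2, Gbp5 and Ifi27 in cornea 2. For transgenic corneas 1 and 2 these are 6.25% and 9.38%, against 15.2% and 23.1% of all genes tested. With 1 library left out, the log2 fold change of 25 of the 32 genes moved by over 1.5 times or changed sign; Ifitm3, Ifit2, Ifit3, Irf7, Stat2, Parp9 and Herc6 did neither. With either transgenic cornea left out, the median log2 fold change was -0.17 (without cornea 1) or -0.29 (without cornea 2).

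Log2 fold changes below 0 were found with and without a response element match. Among the 15 genes with a match 10 had log2 fold changes below 0, with a median of -0.11, and among the 9 windows without one 8 did, with a median of -0.24. Stat2, Parp9, Herc6, Trim25 and Oasl were among those without a match in this window. The 5 genes with a match and a log2 fold change above 0 were Ifitm2, Rsad2, Ifi27, Ifi44 and Gbp5. Of all genes tested, 51.8% had log2 fold changes below 0. The 8 interferon-stimulated genes with no promoter window are in neither set. All of them had log2 fold changes below 0, from -0.86 (Ifit2), -0.79 (Ifit1) and -0.77 (Ifitm1) to -0.05 (Usp18). With these genes unclassified, the medians cannot show whether genes with a match differed less, and this was not tested.

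Other parts of the pathway were read from lists of genes outside the 32. Of 35 tested interferon-induced genes that are not among them, 27 had log2 fold changes below 0 (77.1%, against 51.8% of all genes), with a median of -0.09, 0 were called by edgeR or DESeq2 in either direction, 3 (8.57%, against 1.93%) had an unadjusted p under 0.05, all lower, and 7 (1 in 5, against 10.7%) had both transgenic values below all wild-type values and 0 above. The 3 of smallest p were lower: Tap1, the peptide transporter of antigen presentation, had 37.7 ± 4.91 CPM without the transgene and 28.5 ± 2.94 CPM with it, Eif2ak2, the RNA-activated kinase PKR, 90.2 ± 7.14 and 73.7 ± 5.19 CPM, and Gbp4 24.2 ± 2.53 and 19.0 ± 1.24 CPM. Their edgeR adjusted p-values lay between 0.639 and 0.731.

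Receptors, kinases and brakes of the pathway had a median log2 fold change of -0.02, with 10 of 13 below 0 (76.9%, against 51.8% of all genes). By edgeR 0 were called. At an unadjusted edgeR p under 0.05, 1 was lower (7.69%, against 1.93% of all genes) and 1 higher (7.69%, against 4.39%). DESeq2 called 1, Ptpn6 (7.69%, against 0.391% of all genes). Ptpn6, a phosphatase that dampens Janus kinase signalling, had 45.7, 43.7 and 45.4 CPM without the transgene and 29.0 and 25.2 CPM with it (log2 fold change -0.73 ± 0.11, edgeR adjusted p = 0.250, DESeq2 adjusted p = 2.72e-05). Ifnar1, a chain of the type I receptor, had 69.2 ± 2.63 CPM without the transgene and 80.3 ± 3.51 CPM with it, higher in both, and Ifngr2 of the type II receptor 122.3 ± 3.10 and 112.8 ± 2.60 CPM, lower in both; neither passed.

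The nucleic acid sensing list had 6 of 12 tested genes below 0, a median log2 fold change of -0.05 and 0 calls by edgeR or DESeq2; 1 gene, Tlr3, had an unadjusted p under 0.05. Tlr3, an endosomal receptor for double-stranded RNA, had 21.4 ± 4.77 CPM without the transgene and 29.99 ± 5.22 CPM with it (log2 fold change 0.49 ± 0.20, edgeR adjusted p = 0.777), higher in both. Zbp1, a sensor of Z-form nucleic acid, had 111.1 ± 16.5 and 83.9 ± 20.2 CPM, lower in both, as was the kinase Tbk1 with 39.1 ± 2.95 and 34.2 ± 3.27 CPM.

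Isoform rows gave the same count of calls and larger differences in Ifi44l and Parp9. The 32 genes have 41 isoform rows under their symbols, of which 4 were at 0 throughout and 37 were tested. By edgeR 0 of them were called (adjusted p from 0.955 to 0.99995), as were 0 (0%) of 27110 isoforms tested. An unadjusted edgeR p under 0.05 was found in 7 of the 37, all lower in the transgenic corneas. The largest of these p-values, that of Ifi44l, ranked 1004 of 27110, counting both directions. The exact share of all isoforms under 0.05 was not computed. In 18 of the 25 genes with a single named isoform the isoform row equalled the gene row within 0.01 counts, so the 2 tables are not independent there. Ifitm3, Ifit2, Ifit3 and Irf7, whose rows are among the 7, belong to these genes, so their rows repeat the gene result. The 4 isoforms of smallest p were the single rows of Ifitm3, Ifit2 and Ifit3 and the main isoform of Stat2, which had 54.1, 59.9 and 58.6 CPM without the transgene and 41.1 and 49.1 CPM with it. The second Stat2 isoform had counts of 392.07, 145.19 and 250.74 in wild-type and 516.94 and 206.52 in transgenic corneas, with no order by genotype. The named isoform of Ifi44l, a row chosen after its values were seen, had 1.54, 2.21 and 1.93 CPM without the transgene and 0.695 and 0.905 CPM with it, and that of Parp9, chosen likewise, 10.3, 6.50 and 9.33 CPM and 3.70 and 5.73 CPM. Neither overlapped between genotypes, and their log2 fold changes were -1.24 and -0.88, against -0.41 and -0.28 for the gene rows. Both isoform rows hold only part of the gene counts (for Parp9 300.83 of 1771.83 in wild-type cornea 1), and neither passed.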

How the data were processed

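The files hold estimated counts that the authors deposited as raw expected counts for each gene and each isoform, in 1 column per library; columns matched the sample descriptions. The submitters' processing notes list rn6 and, with no role for any of them, FastQC, fastp, RSEM 1.2.28, STAR 2.5.3a, edgeR 3.28.0 and DESeq2 1.26.0. No source states whether reads were counted by strand, so antisense reads cannot be told apart.

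Here counts were rounded, filtered by filterByExpr (minimum count 10), scaled by TMM and tested over 13304 genes with edgeR 4.0.16 (robust quasi-likelihood F test, two-sided; R 4.3.3), with Benjamini-Hochberg adjustment and a threshold of 0.05. SE is the log2 fold change over the square root of F, and 95% intervals use its t quantile. DESeq2 1.42.0 and limma 3.58.1 were alternatives, as were other scalings, filters, the summed isoform table, a replicate block and leaving out each library. The edgeR procedure was run on simulated counts, with 50 genes changed at each of several folds. It recovered 15 of 50 at a fold of 1.5, 36 at 2, 42 at 3 and 47 at 4. The 18 false calls beside them were a larger share of all calls than the threshold of 0.05. Many genes were changed at once and counts were drawn independently for each library, while the real test called 1 gene. These rates may therefore overstate what the real test recovers. Log2 deviations use a pseudocount of 0.5 CPM.

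The 34 genes, the lists and the tests were chosen with earlier results of these data known. Per-library values are given for the 14 genes of smallest p, the 4 of highest mean CPM and any role group not yet named. The 3 of smallest p in each pathway list are given too. Ifitm2, Oasl, Rsad2 and Bst2 were added after their values were seen. Levels are not compared between genes, since transcript lengths were not used.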

Additional observations from a re-analysis of the deposited data

How the results depend on the processing

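Of the 32 genes, 23 to 27 had log2 fold changes below 0 under every alternative run, and the median lay between -0.29 and -0.17; both ends come from leaving out a transgenic cornea, -0.288 without cornea 2 and -0.171 without cornea 1. The number of the 32 genes called was 0 in each edgeR and limma voom setting and 3 with DESeq2; with DESeq2 and 1 library left out, chosen after seeing the data, it ran from 1 to 5. Over all genes, 1 was called in the main test, 52 with DESeq2, 2 with no filter on low counts, 2 with the isoform table summed by gene name, and 2 to 36 with 1 library left out. Adding the replicate number as a block gave 16, with 0 of the 32 genes called and 27 below 0. The labels do not say that a number marks anything shared, so the numbers were not taken to pair the rats. Deviations of same-numbered libraries from their group mean correlated across genes at 0.000625 and -0.105. With 2 transgenic libraries their deviations mirror each other, so these values are not separate checks and cannot decide on pairing. Of the 32 genes, 10 changed sign under at least 1 alternative: Bst2, Gbp2, Gbp5, Ifi44, Irf1, Mx1, Oas1a, Rsad2, Usp18 and Xaf1. Values were -0.0634 for Irf1 and -0.335 for Rsad2 under the replicate block, and with 1 library left out they ran from -0.172 to 0.228 for Irf1, from -0.764 to 0.641 for Rsad2 and from -0.515 to 0.0179 for Gbp2; the cause was not tested. The median log2 fold change of all genes lay between -0.00905 and 0.0144 under the settings run. Where a transgenic cornea was left out, the lone sample was assumed to vary like the wild-type ones. With the isoform table summed by gene name, Ifi44l moved from -0.408 to -1.24 and Parp9 from -0.276 to -0.884. Intervals spanned more than 1 log2 unit in 17 of the 32 genes, among them 9 of the 11 with a mean under 10 CPM.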

Other observations

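Rows of the same gene families that are not among the 32 genes were read after their values were seen. Of 18 such rows 11 were tested, 10 (90.9%, against 51.8% of all genes) had log2 fold changes below 0 with a median of -0.29, and 0 were called by edgeR; of those tested, Gbp4 and Oas3 also belong to the list of other interferon-induced genes. Both transgenic values lay below all wild-type values in 2 (18.2%, against 10.7% of all genes), Gbp4 and Ifitm10. Ifi27l2b, a relative of Ifi27, had 63.6, 34.3 and 42.4 CPM in wild-type samples 1 to 3 against 22.9 and 39.0 CPM in the transgenic pair, with wild-type cornea 1 highest as in Ifit2 and Ifit3. Ifi47, an interferon-inducible GTPase, had 113.9, 132.2 and 102.3 CPM without the transgene and 103.2 and 87.2 CPM with it. Oasl2, a synthetase in the family of Oasl, had 3.65, 4.65 and 5.56 CPM without the transgene and 1.93 and 4.93 CPM with it, an order that differs from that of Oasl and is the same as that of Mx2 in its lowest and highest library.

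The count ratio of Oasl to Rsad2, not corrected for length, was 2.20, 3.00 and 2.64 in wild-type and 1.38 and 1.42 in transgenic corneas, while each gene alone overlapped between genotypes. The ratio was chosen after its values were seen and was not tested. The count ratio of Oasl to Herc6 ran from 3.37 to 3.73 in wild-type and was 4.12 and 2.12 in transgenic corneas.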
